A study of Mus musculus with 3 samples.

Results

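The 10 genes described here are imprinted genes known for roles in fetal growth: the long noncoding RNAs H19 and Meg3, the growth factor gene Igf2 and its clearance receptor gene Igf2r, the cell cycle inhibitor gene Cdkn1c, the zinc finger genes Peg3 and Plagl1, the Notch-related ligand gene Dlk1, the adaptor gene Grb10 and the hydrolase gene Mest. They were found by symbol in a table of 55471 features, and all 10 are listed there once. H19 was chosen by its measured TPM (an abundance in which reads are corrected for transcript length and library size), which was far higher in JC-P than in JC-WT; the other 9 were added as related imprinted genes with the results of these libraries known. Ratios of the members are therefore descriptions.

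The libraries come from JC, a mouse mammary carcinoma line, grown as cultured cells in medium with 10% serum, and are stranded libraries of poly(A)-selected RNA. JC-WT carries WT as both its genotype and its treatment label. JC-P cells were recovered from mammary fat pad tumours at day 14, per the labels' protocols, although their treatment label reads metastasis. JC-M3 cells came from lung lesions after 3 cycles in which 500000 cells were put into the tail vein and the lungs collected 28 days later, and also carry the treatment label metastasis. The genotype label of JC-P and JC-M3 is WT as well. Whether the recovered populations were cloned or held host cells is not given in the sources used here. There was 1 library per population, so no difference below was tested for significance. In bulk RNA, more cells with a transcript and more of it per cell cannot be told apart.

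An imprinted gene is transcribed mainly from 1 parental copy, marked by DNA methylation laid down in the egg or sperm. H19 and Igf2 are neighbours that share enhancers and a control region: in normal tissue the maternal copy makes H19, the paternal copy makes Igf2, and both are abundant in the embryo and mostly silent after birth. In mouse, the noncoding RNA Airn starts inside an intron of Igf2r on the opposite strand and silences the paternal Igf2r copy. The allele of origin was not measured in these libraries.

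Sequences are given for the elements at which the expressed members are read or processed, with RefSeq on GRCm38.p6 as the source. H19 RNA is the precursor of miR-675, whose hairpin lies inside the H19 exons. Both mature arms are printed 5′ to 3′ with the seed, bases 2 to 8, in capitals, and no other of the 1679 mature mouse miRNA names of the table shares either seed.
mmu-miR-675-5p: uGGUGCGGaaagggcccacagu
mmu-miR-675-3p: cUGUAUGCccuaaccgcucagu
The Mir675 hairpin, at chr7:142577064-142577147 on the minus strand, is listed at 0 in all 3 libraries. Libraries of poly(A)-selected, fragmented RNA do not capture mature miRNAs, so that 0 says nothing about miR-675 itself. H19 is known in human cells as an RNA that binds let-7. The bases that pair with the let-7 seed, ctacctc, were in 0 of the 7 annotated mouse H19 transcripts, and in 15.6% of 3646 mouse lincRNA transcripts of 1000 to 4000 bases, which says only that these letters are not in them.

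Promoter windows of 300 bases, each spanning a transcription start, were found for 8 of the 10 members, 15 windows in all, of which a pair at Mest overlap almost wholly; H19 and Cdkn1c had no entry. The windows below belong to Igf2r, to Airn and to the CpG-rich start of Mest, printed 5′ to 3′ with each CpG, the dinucleotide that carries the methylation, in capitals.
Igf2r (chr17:12769657-12769956, minus strand): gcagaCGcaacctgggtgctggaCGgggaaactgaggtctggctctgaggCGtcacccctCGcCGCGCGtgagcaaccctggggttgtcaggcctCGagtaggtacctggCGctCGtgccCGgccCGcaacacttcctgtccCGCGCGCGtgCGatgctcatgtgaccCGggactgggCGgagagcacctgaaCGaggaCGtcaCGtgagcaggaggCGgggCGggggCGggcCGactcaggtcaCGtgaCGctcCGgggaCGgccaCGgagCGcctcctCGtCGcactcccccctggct
Airn (chr17:12741061-12741360, plus strand): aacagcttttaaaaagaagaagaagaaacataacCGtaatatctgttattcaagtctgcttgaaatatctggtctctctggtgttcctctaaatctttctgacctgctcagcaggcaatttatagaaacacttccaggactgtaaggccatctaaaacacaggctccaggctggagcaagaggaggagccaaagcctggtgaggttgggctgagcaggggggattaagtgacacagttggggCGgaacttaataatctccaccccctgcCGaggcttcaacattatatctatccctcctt
Mest (chr6:30737800-30738099, plus strand): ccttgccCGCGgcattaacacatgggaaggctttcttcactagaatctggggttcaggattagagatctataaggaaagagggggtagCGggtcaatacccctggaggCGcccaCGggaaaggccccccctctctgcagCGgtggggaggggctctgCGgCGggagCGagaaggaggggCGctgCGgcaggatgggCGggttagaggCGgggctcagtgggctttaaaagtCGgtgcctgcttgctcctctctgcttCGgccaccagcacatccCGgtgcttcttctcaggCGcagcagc
The Igf2r window holds 34 CpGs, more than 92.3% of the 32851 windows of the table, where the median is 7. The Mest window holds 17 CpGs and the Airn window 3. The Plagl1 core GGGGCCCC, searched on both strands, was in 1 of the 15 member windows, that of Peg3, and in 1.08% of all windows. GGNGGCAG, part of the CTCF motif and also searched on both strands, was in 2 of the 15, 1 of Igf2 and 1 of Grb10, and in 12.6% of all windows. These matches are letters in a window and no evidence of binding.

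Of the 10 members, 3 had reads: H19, Igf2r and Mest. The other 7, Igf2, Cdkn1c, Peg3, Meg3, Dlk1, Plagl1 and Grb10, were at 0 reads in every library, 70% of the members. Of all 55471 features 57.2% were at 0 in all 3 libraries, and of 21974 protein-coding ones 31.4%. Only H19 and Igf2r reached a mean of 1 TPM over the libraries, the limit for calling a gene measured, which 14527 features passed. A measured gene was called higher or lower when its TPM + 0.5 differed at least 2-fold. By that rule H19 was called in each of the 3 comparisons, and Igf2r in none. As background, 4.76% of measured features were called higher and 2.33% lower in JC-P over JC-WT. In JC-M3 over JC-P 3.82% were called higher and 5.38% lower, and in JC-M3 over JC-WT 6.14% higher and 5.27% lower. With 2 members measured, nothing is read from their share.

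H19, the noncoding RNA of the pair with Igf2, had 1.36 TPM (JC-WT, 18 reads, 95% Poisson counting interval 0.808 to 2.15), 24.1 TPM (JC-P, 390 reads, 21.8 to 26.6) and 4.74 TPM (JC-M3, 80 reads, 3.76 to 5.90). The 3 intervals do not overlap, JC-P is the high library, and JC-M3 lies between it and JC-WT. Among measured features these levels lay at percentile 7.21 (JC-WT), 55.5 (JC-P) and 22.4 (JC-M3), so H19 reached the middle of the range in JC-P alone. The gene lies at chr7:142575529-142578143 on the minus strand (GRCm38), with 2460 merged exon bases, and 1.33% of the 50-base windows of its transcripts occur in other genes.

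**Figure D1:**
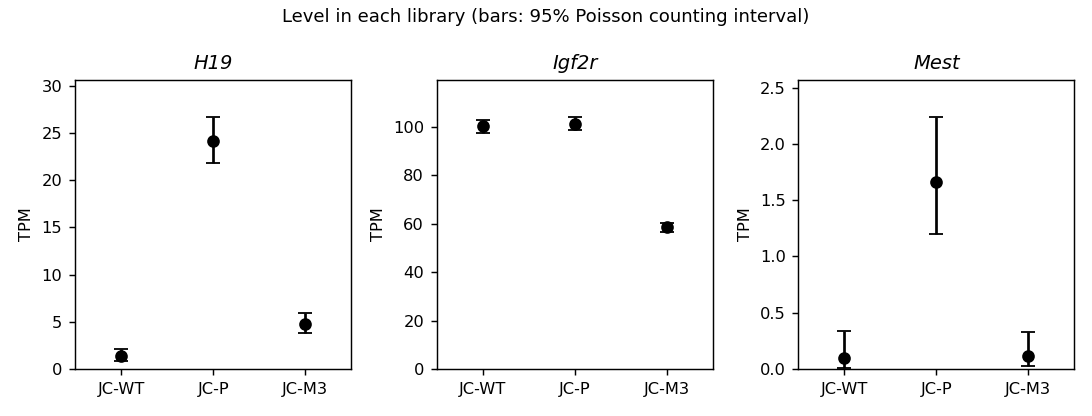
TPM of H19, Igf2r and Mest in each library, on axes that start at 0; points are the single library of each population and bars the 95% Poisson counting interval. H19 and Mest stand highest in JC-P, at 24.1 and 1.66 TPM, while Igf2r is level in JC-P and JC-WT and stands at 58.6 TPM in JC-M3.

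Against JC-WT, H19 was 17.7-fold higher in JC-P, with an exact conditional counting interval of 11.0 to 30.2. The log2 ratio of TPM + 0.5 was 3.72, the highest of the 9474 features whose mean reached 10 TPM, a limit that H19 passed narrowly with a mean of 10.1, and the 20th highest of all 14527 measured. Since this contrast chose H19, nothing is read from its place in it.

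In JC-M3, H19 was at 4.74 TPM, against 24.1 TPM in JC-P, a ratio of 0.196 (0.152 to 0.250) and a log2 ratio of -2.23. That placed it as the 138th lowest of 14527. Against JC-WT, H19 in JC-M3 was 3.48-fold higher (2.07 to 6.16), a log2 ratio of 1.49, the 443rd highest. The JC-P library enters both the first and the second of these comparisons, so a high value in JC-P sets the direction of both. In all, 189 measured features (1.30%) were called higher in JC-P than in JC-WT and also called lower in JC-M3 than in JC-P.

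**Figure D2:**
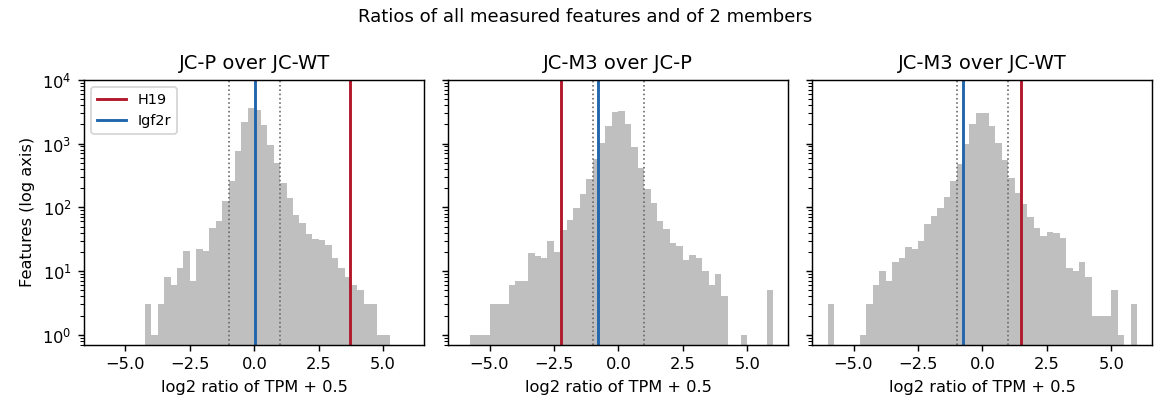
Log2 ratios of TPM + 0.5 of the 14527 measured features in each comparison (grey bars of width 0.25, log count axis, values beyond 6 in the outermost bars), with H19 in red, Igf2r in blue and the 2-fold limits dotted. H19 lies beyond the limits in all 3 panels, at 3.72, -2.23 and 1.49, and Igf2r inside them.

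Igf2, the growth factor gene that shares enhancers with H19, lies at chr7:142650766-142666816 on the minus strand and had 0 reads in all 3 libraries, which allows up to 0.0977 TPM in JC-WT, by the limit of 3 reads that a count of 0 allows. Its annotation limits that reading: 62.8% of its 5723 exon bases also belong to Gm49394, a gene annotated over it on the same strand, and how reads in shared bases were assigned is not given in the sources used here. Gm49394 itself had 1 read in both JC-WT and JC-P and 0 in JC-M3. Igf2os, transcribed from the opposite strand, was listed at 0 in JC-WT and JC-M3 and at 0.0285 TPM in JC-P. The high H19 level of JC-P was thus seen without counted Igf2 reads.

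Igf2r encodes the mannose 6-phosphate receptor, which carries IGF2 and lysosomal enzymes to the lysosome. It was the most abundant member, with 100.3 TPM (JC-WT, 5010 reads), 101.4 TPM (JC-P, 6203 reads) and 58.6 TPM (JC-M3, 3742 reads). The counting intervals of JC-P (98.9 to 104) and JC-WT (97.5 to 103) overlap, and that of JC-M3 (56.7 to 60.5) lies below both. JC-P over JC-WT gave a log2 ratio of 0.02. JC-M3 over JC-P gave -0.79 (interval -0.85 to -0.73), and JC-M3 over JC-WT gave -0.77 (-0.84 to -0.71). Neither difference of JC-M3 reached 2-fold, and 8.52% and 8.23% of measured features had lower ratios in the same comparisons. Per length, the level of Igf2r was 73.6 times that of H19 in JC-WT, 4.20 times that in JC-P and 12.4 times that in JC-M3.

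Airn, the antisense RNA that overlaps Igf2r, had 14.1 TPM (JC-WT), 18.96 TPM (JC-P) and 8.26 TPM (JC-M3). It was called lower in JC-M3 than in JC-P, with a log2 ratio of -1.15, and was within 2-fold in the other comparisons. The exons of Airn and Igf2r share 0 bases, but Airn runs through Igf2r introns, and with no counting strand given, reads from unspliced Igf2r cannot be told apart from Airn. The level of Igf2r was 7.13 times that of Airn in JC-WT, 5.35 times that in JC-P and 7.09 times that in JC-M3, per length. Igf2r has 9308 exon bases at chr17:12682406-12769664 on the minus strand, and no 50-base window shared with another gene.

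Mest, the paternally expressed hydrolase gene, followed the JC-P-high order at a much lower level. It had 0.0945 TPM (JC-WT, 2 reads), 1.66 TPM (JC-P, 43 reads) and 0.111 TPM (JC-M3, 3 reads). The counting interval of JC-P (1.20 to 2.23) lies above those of JC-WT (0.0114 to 0.341) and JC-M3 (0.0229 to 0.324), which overlap. The ratio of JC-P over JC-WT was 17.6 (4.57 to 150) and that of JC-M3 over JC-P 0.0668 (0.0133 to 0.209). With a mean of 0.621 TPM, Mest did not pass the limit of 1 TPM and is in none of the counts of called genes. The gene lies at chr6:30723547-30748465 on the plus strand. It shares 23.1% of its exon bases with Copg2 on the opposite strand, which had 138 TPM (JC-WT), 132 TPM (JC-P) and 120 TPM (JC-M3), and so no peak in JC-P.

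The members without reads cover each remaining role. Cdkn1c encodes a cyclin-dependent kinase inhibitor, Grb10 an adaptor that dampens insulin and IGF receptor signals, Plagl1 and Peg3 zinc finger proteins, Dlk1 a membrane ligand related to Notch ligands, and Meg3 the maternal noncoding RNA of the Dlk1 domain. The limit that a count of 0 allows ranged from 0.0242 TPM, for Meg3, to 0.274 TPM, for Cdkn1c, over these 6 genes, Igf2 and the 3 libraries. On GRCm38 these are Cdkn1c at chr7:143458339-143461050, Grb10 at chr11:11930508-12038683 and Peg3 at chr7:6703892-6730431, all on the minus strand, and Plagl1 at chr10:13060504-13131694, Dlk1 at chr12:109452823-109463336 and Meg3 at chr12:109541001-109571726, all on the plus strand. Of the Cdkn1c exon bases, 30.7% are shared with the antisense gene Gm44732, also listed at 0. No fold is given for any of the 7.

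Levels near H19 on chromosome 7 were set out to show whether its neighbours moved with it. Within 1000 kb of the H19 start, 17 of 90 features were measured. In JC-P over JC-WT, 2 of the 17 were called higher, H19 and Cd81, and none lower, with a median log2 ratio of 0.25, beside -0.08 over the 848 measured protein-coding genes of the chromosome. In JC-M3 over JC-P, 5 of the 17 were called lower and none higher, and the median log2 ratio was -0.67, beside 0.03 over the chromosome. In JC-M3 over JC-WT, 2 were called higher and 3 lower, 13 of the 17 lay below 0 and the median was -0.11, beside -0.02 over the chromosome, while H19 was at 1.49. Over all measured features, 4.76% were called higher and 2.33% lower in JC-P over JC-WT. The shares were 3.82% and 5.38% in JC-M3 over JC-P, and 6.14% and 5.27% in JC-M3 over JC-WT. The counts of the region were not tested against these shares.

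Of 11 listed neighbours of H19 and Igf2, 5 were measured, all on the side away from Igf2. All 5 had their highest level in JC-P and their lowest in JC-M3, at smaller differences than H19. All 5 were within 2-fold in JC-P over JC-WT and in JC-M3 over JC-WT, and 4 in JC-M3 over JC-P. How many of all measured features have this order was not counted, so nothing is read from the shared order. Tnnt3, a fast skeletal troponin gene 79.3 kb from the H19 start, had 7.06 TPM (JC-WT), 13.4 TPM (JC-P) and 3.96 TPM (JC-M3). Its log2 ratio of JC-M3 over JC-P was -1.64, the single call among these 5 genes. Syt8, of the synaptotagmin family, had 60.1 TPM (JC-WT), 71.8 TPM (JC-P) and 37.8 TPM (JC-M3). The troponin gene Tnni2 had 14.8 TPM (JC-WT), 20.4 TPM (JC-P) and 11.8 TPM (JC-M3), the leukocyte-specific protein gene Lsp1 28.5, 34.1 and 27.0 TPM, and the mitochondrial ribosomal gene Mrpl23 4.20, 4.67 and 3.94 TPM, in that order of libraries. H19 differs from all 5 in JC-M3 over JC-WT, where its log2 ratio was 1.49 and theirs ran from -0.76 to -0.08.

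On the Igf2 side, the next measured gene was Cd81, a tetraspanin gene that is imprinted in mouse placenta, 475 kb from the H19 start. It had 0.259 TPM (JC-WT, 4 reads), 15.5 TPM (JC-P, 293 reads) and 0.203 TPM (JC-M3, 4 reads). Cd81 passed the mean of 1 TPM only through JC-P. Its place among the measured and called genes, here and among the other imprinted genes below, thus rests on that library. JC-P over JC-WT gave a log2 ratio of 4.40 and JC-M3 over JC-P one of -4.51, both past those of H19, and in JC-M3 over JC-WT it was -0.11. Tssc4, whose start is 491 kb away, was within 2-fold throughout, at 73.7 TPM (JC-WT), 58.8 TPM (JC-P) and 75.1 TPM (JC-M3). Kcnq1ot1, the noncoding RNA that silences the domain holding Cdkn1c, had 0.690 TPM (JC-WT), 1.02 TPM (JC-P) and 1.77 TPM (JC-M3). The high JC-P levels of H19 and Cd81 were thus separated by genes at 0, among them Igf2, Ins2, Th and Ascl2, and not shared by Tssc4.

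**Figure D3:**
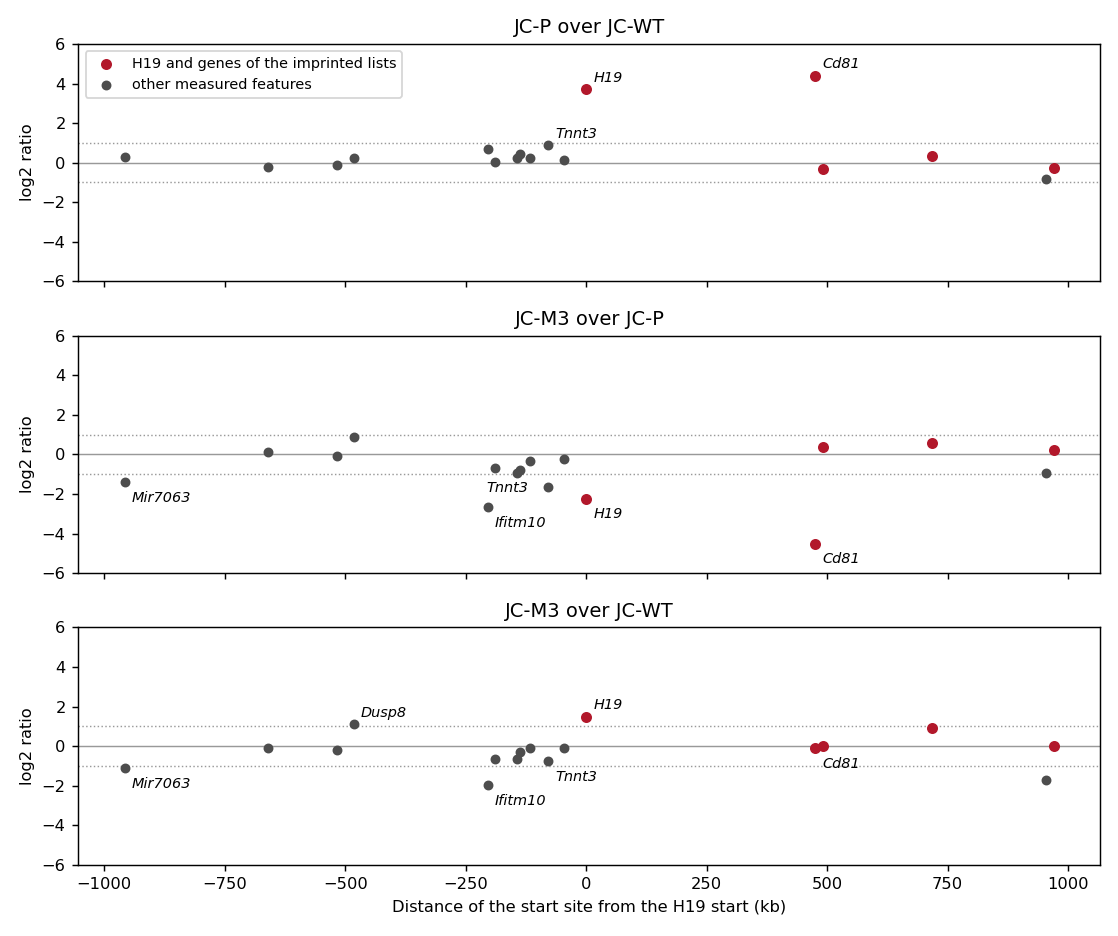
Log2 ratios of TPM + 0.5 of the 17 measured features against the distance of their start site from that of H19 in kb, negative on the side away from Igf2, with the 2-fold limits dotted and genes of the imprinted lists in red. H19 and Cd81 stand at 3.72 and 4.40 in JC-P over JC-WT, and the 5 listed neighbours at -143 to -45.5 kb lie below 0 in JC-M3 over JC-P.

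Of 52 other imprinted genes found in the table, 24 (46.2%, beside 57.2% of all features) were at 0 in all libraries and 17 were measured. Of these 17, 1 was called higher in JC-P than in JC-WT, 2 were called lower in JC-M3 than in JC-P and 1 higher in JC-M3 than in JC-WT. These counts are near the shares called over all measured features and are not read as a result about imprinted genes. Their median log2 ratios were 0.09, 0.00 and -0.02 in these comparisons, beside 0.01, -0.01 and 0.00 over all measured features. Besides Cd81 and Airn, the called gene was Atp10a, a phospholipid flippase gene near Ube3a, with 25.7 TPM (JC-WT), 32.8 TPM (JC-P) and 52.2 TPM (JC-M3), and a log2 ratio of JC-M3 over JC-WT of 1.00. The 6 measured genes expressed from the paternal copy, as Igf2 and Mest are, had ratios of JC-P over JC-WT above 0, with a median of 0.38 and none past 2-fold. Among them the brain noncoding RNA Peg13 had 10.3 TPM (JC-WT), 15.3 TPM (JC-P) and 18.4 TPM (JC-M3), and the phosphatase gene Inpp5f 7.10 TPM (JC-WT), 10.5 TPM (JC-P) and 6.48 TPM (JC-M3). The 11 measured genes of the maternal copy, as H19 and Igf2r are, had a median of -0.19 in JC-P over JC-WT, with 5 above 0. The median over all measured features was 0.01 there. In each comparison of JC-M3, the 6 paternal genes were split, with 3 above 0 and 3 below. The difference between the paternal and maternal genes was not tested.

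**Figure D4:**
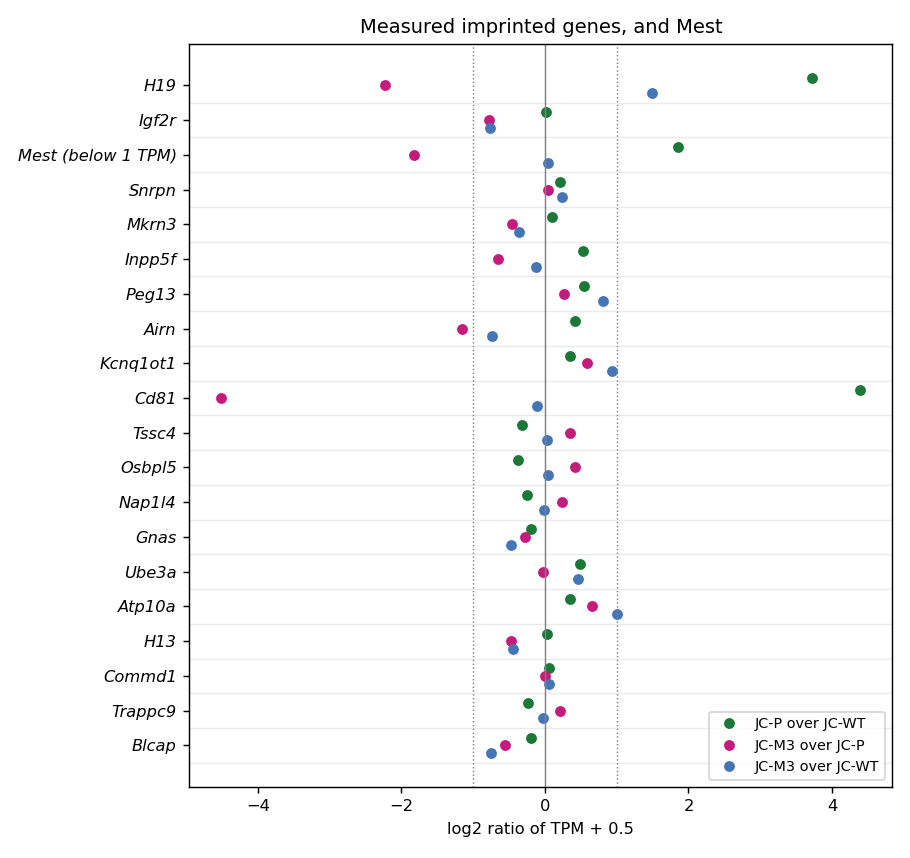
Log2 ratios of TPM + 0.5 in each comparison for H19, Igf2r, Mest (mean below 1 TPM) and the 17 other measured imprinted genes, with the 2-fold limits dotted. H19, Mest and Cd81 are high in JC-P over JC-WT and low in JC-M3 over JC-P, and the remaining genes, other than Airn and Atp10a, lie inside the limits.

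Among 19 genes of the network tied to Plagl1 in mouse, 9 were at 0, Plagl1 included, and 4 were measured: H19, Igf2r, Gnas and the matrix proteoglycan gene Dcn. Dcn had 1.24 TPM (JC-WT), 14.0 TPM (JC-P) and 22.5 TPM (JC-M3), so unlike H19 it stood highest in JC-M3. Of 22 genes that keep or erase imprints, 18 were measured and 0 were called in any of the 3 comparisons, where the shares called over all features, given above, would leave few of 18. The maintenance methyltransferase gene Dnmt1 had 130 TPM (JC-WT), 115 TPM (JC-P) and 131 TPM (JC-M3). Ctcf, whose protein binds the H19 and Igf2 control region, had 88.1 TPM (JC-WT), 70.2 TPM (JC-P) and 77.9 TPM (JC-M3).

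Of 21 genes of IGF and insulin signalling, to which Igf2, Igf2r and Grb10 belong, 9 were measured. In JC-P over JC-WT 2 were called lower and none higher, beside 2.33% and 4.76% of all measured features. They were the insulin receptor substrate gene Irs1 (4.29 TPM in JC-P, 11.3 TPM in JC-WT) and Stc2, whose secreted product inhibits an IGFBP protease. Stc2 had 46.0 TPM (JC-WT), 17.0 TPM (JC-P) and 11.2 TPM (JC-M3), and was also called lower in JC-M3 over JC-WT, at a log2 ratio of -1.99. Igfbp7, of the IGF-binding protein family, had 114 TPM in JC-M3 and 48.1 TPM in JC-P. It was the single call higher in JC-M3 over JC-P, where 3.82% of all measured features were called higher. Ligand levels were at the limit throughout, with Ins2 at 0 and Igf1 at 0 reads in JC-WT and 1 in each of the others, while the receptor gene Igf1r had 15.8, 13.5 and 13.5 TPM in the order JC-WT, JC-P, JC-M3.

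Of 6 measured cyclin-dependent kinase inhibitor genes besides the silent Cdkn1c, 1 was called, Cdkn2b, with 92.5 TPM in JC-M3 and 197 TPM in JC-P. In that comparison 5.38% of all measured features were called lower. Of 5 measured genes of the Dlk and Notch list, 4 were called in JC-M3 over JC-WT, 1 higher and 3 lower, beside 6.14% and 5.27% of all measured features. In JC-P over JC-WT 2 of the 5 were called, both lower, beside 2.33% of all measured features. In JC-M3 over JC-P 1 was called higher and 1 lower, beside 3.82% and 5.38%. Dlk2, the relative of the silent Dlk1, was the one called higher, with 8.20 TPM (JC-WT), 6.27 TPM (JC-P) and 19.1 TPM (JC-M3), a log2 ratio of JC-M3 over JC-WT of 1.17. The receptor gene Notch1 had 62.2 TPM (JC-WT), 62.9 TPM (JC-P) and 26.7 TPM (JC-M3), a log2 ratio of -1.20 in that comparison. The Notch targets were called lower in both JC-P and JC-M3 than in JC-WT: Hes1 had 10.5 TPM (JC-WT), 2.61 TPM (JC-P) and 4.29 TPM (JC-M3), and Hey1 5.54 TPM (JC-WT), 0.932 TPM (JC-P) and 1.12 TPM (JC-M3). Of 9 measured RNA-binding partners and noncoding RNAs, 1 was called higher in JC-P over JC-WT, where 4.76% of all measured features were. It was the nuclear noncoding RNA Malat1, with 348 TPM (JC-WT), 758 TPM (JC-P) and 820 TPM (JC-M3). Malat1 was also called higher in JC-M3 over JC-WT, at a log2 ratio of 1.23. Of 10 measured transcription factors linked to H19, none was called in JC-P over JC-WT. There 4.76% of all measured features were called higher and 2.33% lower. In JC-M3 over JC-WT 1 was called higher, Snai2, with 38.7 TPM in JC-M3 and 15.8 TPM in JC-WT, beside 6.14% of all measured features.

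The genes most like H19 over the 3 libraries were ranked by the distance between log2 profiles after each gene's mean was subtracted, among 8837 named features whose mean reached 10 TPM. The nearest was Col3a1, the type III collagen gene, at a distance of 0.33, with 3.99 TPM (JC-WT), 46.0 TPM (JC-P) and 8.76 TPM (JC-M3). Then came Mir1957a (0.64) and Snord138 (0.86), each resting on 1 read in JC-WT, and Col6a3 (1.12), the type VI collagen gene, with 5.23 TPM (JC-WT), 57.6 TPM (JC-P) and 35.1 TPM (JC-M3). The fifth was Apod (1.28), the apolipoprotein D gene, with 8.17, 33.4 and 16.6 TPM in the same order. With 3 libraries a likeness of profiles is a description.

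**Figure D5:**
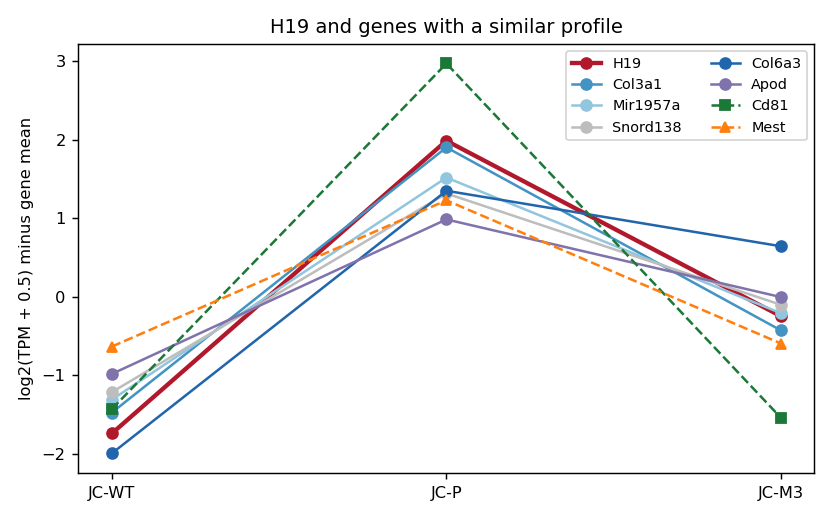
Log2(TPM + 0.5) minus each gene's mean over the libraries for H19, the 5 features nearest to it in profile, and Cd81 and Mest (dashed). All 8 lines peak in JC-P, and Col3a1 lies nearest to H19, at a distance of 0.33.

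The libraries held 18093420 (JC-WT), 22132591 (JC-P) and 23386412 (JC-M3) reads assigned to features, as recovered from the deposited values. The 12 epithelial markers were only partly present: Krt8 had 1503 TPM (JC-WT), 1873 TPM (JC-P) and 681 TPM (JC-M3), but Epcam, Cldn7 and Elf5 were at 0. Krt18 had 48.6 TPM (JC-WT), 48.5 TPM (JC-P) and 18.4 TPM (JC-M3), and Krt7 1.74, 0.583 and 1.70 TPM in the same order. Cdh1 had 0 reads (JC-WT), 25 reads (JC-P) and 21 reads (JC-M3). Markers of cells that recovered tumours could hold moved as follows. The 12 fibroblast markers summed to 224 TPM (JC-WT), 419 TPM (JC-P) and 1097 TPM (JC-M3), with Lum and Thy1 at 0 in all libraries. Most of that sum is Col1a1, with 132 TPM (JC-WT), 261 TPM (JC-P) and 949 TPM (JC-M3). Some other fibroblast markers stood highest in JC-P, as H19 did. They include Col3a1, given above, and Pdgfra, with 34.1 TPM (JC-WT), 47.6 TPM (JC-P) and 20.1 TPM (JC-M3). Others, like Col1a1, stood highest in JC-M3. They include Dcn, given above, and Col1a2, with 0.255 TPM (JC-WT), 0.661 TPM (JC-P) and 4.40 TPM (JC-M3). Dpt stood highest in JC-WT, with 2.27 TPM (JC-WT), 2.12 TPM (JC-P) and 0.254 TPM (JC-M3). Of 8 measured fibroblast markers, 3 were called higher and 3 lower in JC-M3 over JC-P, beside 3.82% and 5.38% of all measured features. The 14 endothelial markers summed to 277 TPM (JC-WT), 304 TPM (JC-P) and 279 TPM (JC-M3), with Kdr and Cldn5 at 0 throughout. Eng made up most of that sum, at 265 to 273 TPM. Of 4 measured endothelial markers, 2 were called higher in JC-P than in JC-WT, and both were called lower in JC-M3 than in JC-P. Of all measured features, 1.30% had both calls. The 2 markers were Cdh5 and Plvap. Cdh5 had 2 reads (JC-WT), 490 reads (JC-P) and 3 reads (JC-M3). Plvap had 7.60 TPM (JC-WT), 17.8 TPM (JC-P) and 2.71 TPM (JC-M3). The other 2, Eng and Egfl7, were within 2-fold in every comparison. Egfl7 fell from 4.06 TPM (JC-WT) to 3.31 TPM (JC-P) and 2.61 TPM (JC-M3). The number of the 14 markers at 0 was 3 for JC-WT and 5 for JC-P and JC-M3 alike. The 12 leukocyte markers summed to 17.4 TPM (JC-WT), 9.34 TPM (JC-P) and 14.9 TPM (JC-M3), with Ptprc, Adgre1, Itgam, Cd3e and Nkg7 at 0. Of 3 measured leukocyte markers, Itgax was called lower in both JC-P and JC-M3 than in JC-WT. It had 2.06 TPM (JC-WT), 0.729 TPM (JC-P) and 0.486 TPM (JC-M3). S100a8 was called higher in JC-M3 over JC-P, with 2.15, 1.32 and 4.41 TPM in the same order. Cd68 was within 2-fold throughout, with 11.9, 6.78 and 7.65 TPM. Of all measured features, 2.33% were called lower in JC-P over JC-WT and 5.27% in JC-M3 over JC-WT, and 3.82% higher in JC-M3 over JC-P. The 8 adipocyte markers summed to at most 0.284 TPM. Of the 12 skeletal muscle markers, Myod1, Myog, Myf5 and Pax7 were at 0, and the sum of 29.6 TPM (JC-WT), 44.7 TPM (JC-P) and 28.6 TPM (JC-M3) includes Tnnt3 and Tnni2, the neighbours of H19. The 9 lung epithelium markers summed to 1.70, 4.47 and 3.53 TPM in the same order, with Sftpc, Sftpb and Scgb1a1 among 6 at 0. The part of other cells in the level of H19, Mest and Cd81 was not tested.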

How the data were processed

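The deposited values are TPM, per the file headers: the authors scaled length-corrected reads to one total per library, and every library's values sum close to it. Tools named by the submitters' processing notes are STAR 2.7.9a, FastQC 0.11.9 and featureCounts (no version), with GRCm38 and mm10 as builds. Neither the annotation release nor the counting strand is given in the sources used here.

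The product of TPM and GENCODE M21 merged exon length (GRCm38), known for 55230 of 55471 features, came in whole multiples of a fixed step, within 0.01 of a read, for 98.4% of expressed features in JC-WT and 98.5% in each of the others. These reads gave Poisson intervals, exact conditional (Clopper-Pearson) intervals of the plain TPM ratio at 95%, and a limit of 3 reads for a count of 0. They cover counting error only. The reads of Airn did not come out whole, so it has no interval.

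Ratios are log2 of TPM + 0.5, called at 2-fold among features whose mean reached 1 TPM; this scale understates differences of low genes. Members, lists and the rule for naming genes were chosen with earlier results of these data known. The rule named every member, the 5 listed neighbours, the 5 features most like H19, and list genes called in any comparison (the 3 highest and 3 lowest where there were more than 6); other genes named were picked after their values were seen. For a repeated symbol the row with the highest mean was used. Scripts were tested on simulated data. Software was Python 3.11.15 with matplotlib 3.10.9, scipy 1.17.1, pandas 2.3.3 and numpy 2.4.6. Alternatives changed the scaling, pseudocount, filter, threshold, repeated symbols and chromosome medians.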

Additional observations from a re-analysis of the deposited data

How the results depend on the processing

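Of the 12 alternatives, those of the filter, threshold and repeated symbols cannot change the ratio of a gene listed once, such as H19 or Igf2r. Under the alternatives of scaling, pseudocount and chromosome medians, H19 kept its direction in all 3 comparisons and stayed past 2-fold. Its log2 ratios ran from 2.96 to 4.05 in JC-P over JC-WT and from -2.32 to -1.95 in JC-M3 over JC-P. In JC-M3 over JC-WT they ran from 1.00 to 1.73, and the lowest, with pseudocount 2, lay at the limit of 2-fold. Igf2r stayed within 2-fold under the same alternatives, at -0.84 to -0.77 in JC-M3 over JC-P. Mest, at 1.86 in JC-P over JC-WT, ran from 0.80 (pseudocount 2) to 3.18 (pseudocount 0.1). Scaling by trimmed means, by medians of ratios or without mitochondrial features, summing repeated symbols and subtracting chromosome medians left every count within 1.5 times, and no scaling moved the median of all features by more than 0.1. Features at least 2-fold higher (up) or lower (down) numbered 692 up, 339 down (JC-P over JC-WT), 555 up, 781 down (JC-M3 over JC-P), 892 up, 766 down (JC-M3 over JC-WT) as reported. They numbered 361 up, 173 down (JC-P over JC-WT), 328 up, 443 down (JC-M3 over JC-P), 522 up, 471 down (JC-M3 over JC-WT) with pseudocount 2, 1288 up, 647 down (JC-P over JC-WT), 1024 up, 1288 down (JC-M3 over JC-P), 1544 up, 1147 down (JC-M3 over JC-WT) with no filter on the mean, 156 up, 63 down (JC-P over JC-WT), 154 up, 269 down (JC-M3 over JC-P), 247 up, 293 down (JC-M3 over JC-WT) where means reached 10 TPM, 1737 up, 1003 down (JC-P over JC-WT), 1456 up, 1934 down (JC-M3 over JC-P), 2039 up, 1813 down (JC-M3 over JC-WT) at 1.5-fold and 283 up, 132 down (JC-P over JC-WT), 219 up, 306 down (JC-M3 over JC-P), 382 up, 319 down (JC-M3 over JC-WT) at 3-fold. The 1 member past the limit as reported became 2 with no filter in both comparisons with JC-P, where Mest joins H19, and 2 at 1.5-fold in both JC-M3 comparisons, where Igf2r joins. At 3-fold it was 0 in JC-M3 over JC-WT. Other imprinted genes past the limit in JC-M3 over JC-WT, 1 as reported, were 2 with pseudocount 0.1, 0 with pseudocount 1 or 2, 5 at 1.5-fold and 0 at 3-fold. Atp10a, at a log2 ratio of 1.00, lay at the limit of 2-fold as reported. In JC-P over JC-WT, 1 became 0 where means had to reach 10 TPM, which drops Cd81. In JC-M3 over JC-P, 2 became 1 with that filter or at 3-fold, 3 with no filter on the mean and 4 at 1.5-fold. The 5 features most like H19 were the same 5 with pseudocount 1. No paired analysis was possible because each population has 1 library, and leaving out a library would leave nothing to compare. Low read numbers limit Mest (2 and 3 reads in JC-WT and JC-M3) and Cd81 (4 reads in each). They also limit the short features Mir7063 and Gm23297 of the region around H19.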
